A study of Mus musculus with 16 samples.

Results

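The mouse genes of 3 kinds of nuclear receptor were followed across 16 livers: Nr1i3, which encodes the constitutive androstane receptor (CAR), Nr1i2, which encodes the pregnane X receptor (PXR), and Rxra and Rxrb, which encode the retinoid X receptors alpha and beta. They are 4 of the 24970 genes in the deposited count table. They were taken by symbol, and each gene is represented by the RefSeq transcript with its highest mean count. The livers fall into 4 groups of 4 mice. C57BL/6 Ntac mice with the mouse receptors, called wild-type here, received either TCPOBOP or the vehicle, which was 2% DMSO in corn oil. Mice of the strain labelled humanized PXR-CAR-CYP3A4/3A7 received the same 2 treatments. TCPOBOP was given at 3 mg/kg in 2 administrations with 24 h between them, and the treatment lasted 48 h. The sources used here do not give the age and sex of the mice or how the mouse loci were altered in the humanized strain. The labels do not say that replicates came from separate litters or cages, so the p-values measure the spread between these 16 samples.

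CAR and PXR are sensors of foreign compounds and of bile acids and steroids. In hepatocytes CAR is held in the cytoplasm by a chaperone complex, and an activating signal releases it to the nucleus. There CAR or PXR pairs with RXR, and the pair binds the control regions of genes for cytochrome P450 enzymes, conjugating enzymes and transporters. RXR is also the partner of many other receptors, among them the PPAR, LXR, FXR, retinoic acid and thyroid hormone receptors. TCPOBOP is a synthetic agonist of mouse CAR and a poor activator of human CAR. The comparisons therefore address whether the receptor genes themselves move when mouse CAR is activated, whether they move in the humanized strain, and how their levels differ between the strains.

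Levels are given in CPM, the counts scaled to the same library total for every library with TMM factors, as mean ± SD with n = 4 libraries per group. Log2 differences are given ± SE, with adjusted p from edgeR's quasi-likelihood F test after Benjamini-Hochberg adjustment over the 12913 genes tested and 0.05 as the threshold. All 4 genes passed the filter on low counts. Summed over all transcript rows, library totals were 30228724 to 37998473 counts in the wild-type TCPOBOP group and 11827994 to 19483951 in the other 3 groups, so greater depth and that group cannot be told apart. Rows of 1 gene share reads, so these totals count some reads more than once. CPM rests on 1 row per gene, and the total of those rows was 6831629 in the smallest library, before the filter on low counts. Leaving out humanized TCPOBOP replicate 1 raised the number of genes called for TCPOBOP in humanized liver from 324 to 964, more than any other library. The 8 hepatocyte markers were present in every library, with a summed level of 31736 to 106086 CPM, against 6.79 to 432 CPM for each list of Kupffer, endothelial, stellate, biliary or lymphocyte markers. In whole liver, fewer cells of a type and less RNA per cell cannot be told apart.

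Rxra was the most abundant of the 4 transcripts per unit of length in every group, and the humanized strain changed the order of the others. In wild-type vehicle liver Rxra was at 133 ± 21.4 CPM per kb of transcript, Nr1i3 at 73.8 ± 5.39, Nr1i2 at 53.5 ± 15.6 and Rxrb at 13.8 ± 1.65 CPM per kb. The libraries of Nr1i3 (68.8 to 78.8) and Nr1i2 (42.6 to 76.2 CPM per kb) overlapped there, while Rxra and Rxrb stood clear of both. Under TCPOBOP in wild-type liver the means of Nr1i2 and Nr1i3 changed places, at 46.2 ± 6.19 and 38.5 ± 3.55 CPM per kb, again with overlapping libraries. In humanized vehicle liver the order was Rxra at 87.1 ± 11.8, Rxrb at 15.1 ± 1.27, Nr1i2 at 7.43 ± 0.49 and Nr1i3 at 1.62 ± 0.36 CPM per kb. No neighbours in that order overlapped, and the order was the same in humanized TCPOBOP liver, again without overlap. These levels use the transcript lengths of the GENCODE models paired with the RefSeq rows.

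**Figure D1:**
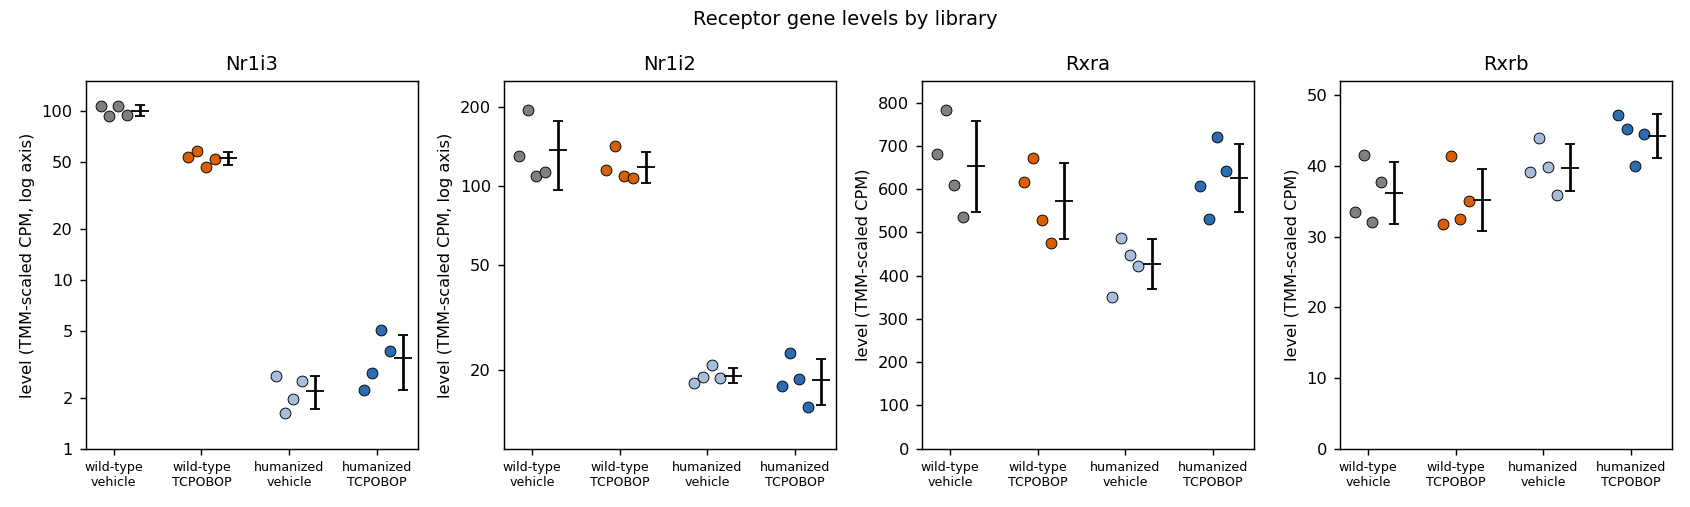
Level of each receptor gene in the 16 livers in TMM-scaled CPM, on a log axis for Nr1i3 and Nr1i2 and on a linear axis from 0 for Rxra and Rxrb; points are libraries, and the horizontal mark with its bar is the group mean ± SD. Nr1i3 falls from 100.3 to 52.3 CPM with TCPOBOP in wild-type liver and lies at 1.63 to 5.02 CPM in all humanized livers, while Rxrb stays between 31.8 and 47.2 CPM in every library.

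Nr1i3 fell with TCPOBOP in wild-type liver and was nearly absent from humanized liver. The gene lies on the plus strand at chr1:171213934-171218845 (mm10), and its transcript with the highest count, NM_001243063, has 9 exons and 1359 bases in the paired GENCODE model, 1071 of them coding. Its exon 8 at chr1:171217626-171217731 is shown because 1 deposited row lacks it, and the counts missing from that row separated the strains. It lies wholly in the coding sequence, in the part that encodes the ligand-binding domain of the receptor. Capitals mark the exon's 106 bases, and lower case marks the last 20 bases of exon 7 and the first 20 of exon 9, read along the transcript.

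Nr1i3 exon 8: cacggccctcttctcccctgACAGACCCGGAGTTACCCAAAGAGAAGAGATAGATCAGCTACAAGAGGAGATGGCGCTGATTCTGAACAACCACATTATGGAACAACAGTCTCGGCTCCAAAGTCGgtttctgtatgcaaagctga

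In wild-type vehicle livers Nr1i3 was at 107, 93.4, 106 and 94.6 CPM in replicates 1 to 4. In wild-type TCPOBOP livers it was at 53.5, 57.9, 46.2 and 51.6 CPM. Every treated library lay below every vehicle library. The difference was -0.94 ± 0.19 on the log2 scale, a 1.92-fold lower level, with a 95% interval of -1.34 to -0.53 (edgeR adjusted p = 0.00199). An exact two-sided permutation test on log2 CPM gave p = 0.0286, the smallest that 4 against 4 can give. Nr1i3 was the only 1 of the 4 receptor genes to pass in this comparison, in which 13.1% of all genes tested were called, 8.09% as higher and 4.99% as lower, and 20.9% had groups that did not overlap. The summed hepatocyte markers were also lower in treated wild-type livers (31736 to 46890 against 67848 to 106086 CPM), with 2 of the 8 markers called lower. Their part in the fall of Nr1i3 was not tested.

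In humanized vehicle livers Nr1i3 was at 2.70, 1.63, 1.96 and 2.50 CPM, from 14 to 26 counts per library. In humanized TCPOBOP livers it was at 2.21, 2.79, 5.02 and 3.79 CPM, from 15 to 49 counts. The treated range began inside the vehicle range, and 3 of 4 treated libraries lay above it. The difference of 0.66 ± 0.24 was not past the threshold (edgeR adjusted p = 0.152; exact permutation p = 0.1143). Without humanized TCPOBOP replicate 1, the library with the lowest treated level, it was 0.85 with an adjusted p of 0.0319. Over all libraries left out in turn the adjusted p ran from 0.0319 to 0.437. The effects in the 2 strains differed, by an interaction of 1.60 ± 0.30 (edgeR adjusted p = 0.00325), in a test that called 7.46% of all genes, 3.48% as higher and 3.98% as lower. Whether the counts of Nr1i3 and Nr1i2 in humanized liver come from mouse transcripts of these genes was not tested. The humanized differences, the interactions and the strain folds of both genes therefore describe counts assigned to their rows.

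Between the strains, Nr1i3 was 45.1-fold lower in humanized than in wild-type liver under vehicle, a log2 difference of -5.50 ± 0.24 (edgeR adjusted p = 1.22e-10). Under TCPOBOP it was 14.9-fold lower (-3.89 ± 0.22, adjusted p = 2.04e-09). All 4 humanized libraries lay below all 4 wild-type libraries in both comparisons. Of all genes tested under vehicle, 16.1% were called, 7.11% as higher and 8.95% as lower in humanized liver, and 26.4% did not overlap. Under TCPOBOP 24.6% were called, 11.8% as higher and 12.8% as lower, and 27.4% did not overlap. Under vehicle 3 of the 4 receptor genes were called, all lower, and under TCPOBOP 2 were, again lower.

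**Figure D2:**
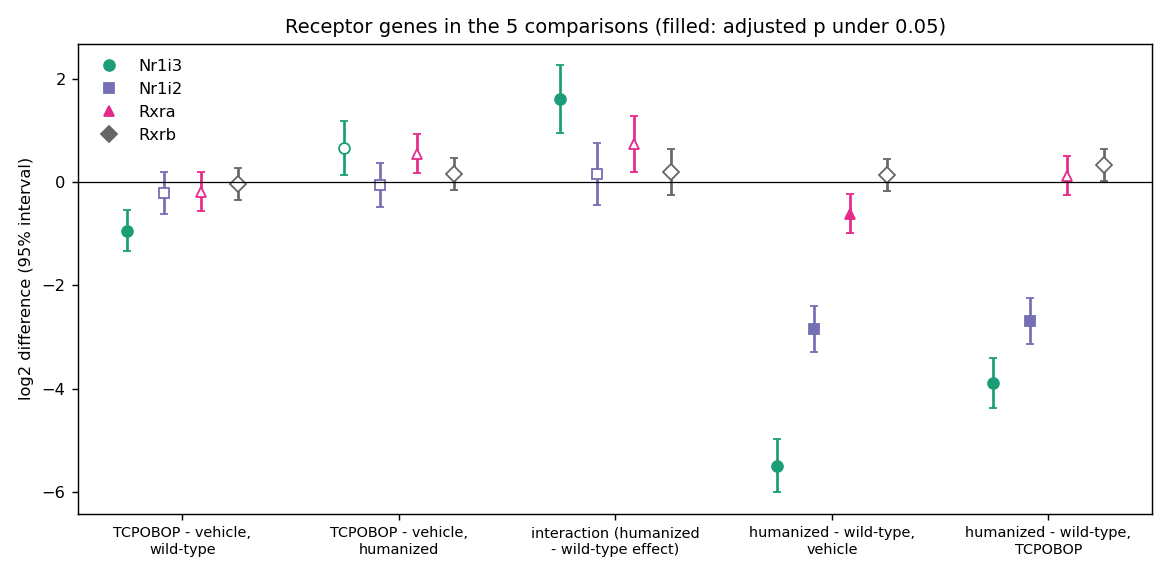
Log2 difference of each receptor gene in the 5 comparisons, with its 95% interval; filled symbols have an edgeR adjusted p under 0.05, and the horizontal line is 0. Nr1i3 is filled in 4 of the 5 comparisons, Nr1i2 in the 2 strain comparisons (-2.85 and -2.69), Rxra in 1 (-0.61) and Rxrb in none.

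The counts that set the row without exon 8 apart in wild-type liver were missing from every humanized liver. The table holds 3 rows for Nr1i3, and 1 of them, NM_001243062, lacks exon 8, which makes up 7.80% of the transcript. That row otherwise differs in its paired model by 3 added coding bases before exon 7 and by noncoding bases at its ends. The row without the exon was short of the row used by 298 of 3883 counts in wild-type vehicle libraries (7.67%, with a range over libraries of 5.09 to 9.04%). In wild-type TCPOBOP libraries it was short by 354 of 4331 counts (8.17%, range 7.37 to 8.60%). The 8 humanized libraries held 194 counts, and in each of them all 3 rows had the same count, a shortfall of 0 of 194. The third row, NM_009803, has exon 8 and the same 3 added bases, and was short by 54 of 8214 counts in wild-type libraries (0.657%). A part of the 652 counts missing from the row without the exon may thus belong to those other differences. A count of 0 allows a share of up to 1.55% in humanized libraries, below the lowest wild-type library. Over both wild-type groups the share was 7.94%, with an exact (Clopper-Pearson) 95% interval of 7.36 to 8.54%. Intervals and floors cover counting error only, and they are approximate because the deposited values may be halved counts.

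The counts missing from the row without exon 8 are a subset of the Nr1i3 counts of the same libraries, and comparing them between treatments was chosen after seeing the data. They were at 8.51, 4.76, 9.01 and 8.55 CPM in wild-type vehicle libraries and at 3.94, 4.74, 3.98 and 4.38 CPM in wild-type TCPOBOP libraries. Replicate 2 of the vehicle group stood apart from its other 3 libraries and lay next to the highest treated library. The ratio of the means was 1.81-fold lower, beside 1.92-fold lower for the whole row that contains these counts.

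**Figure D3:**
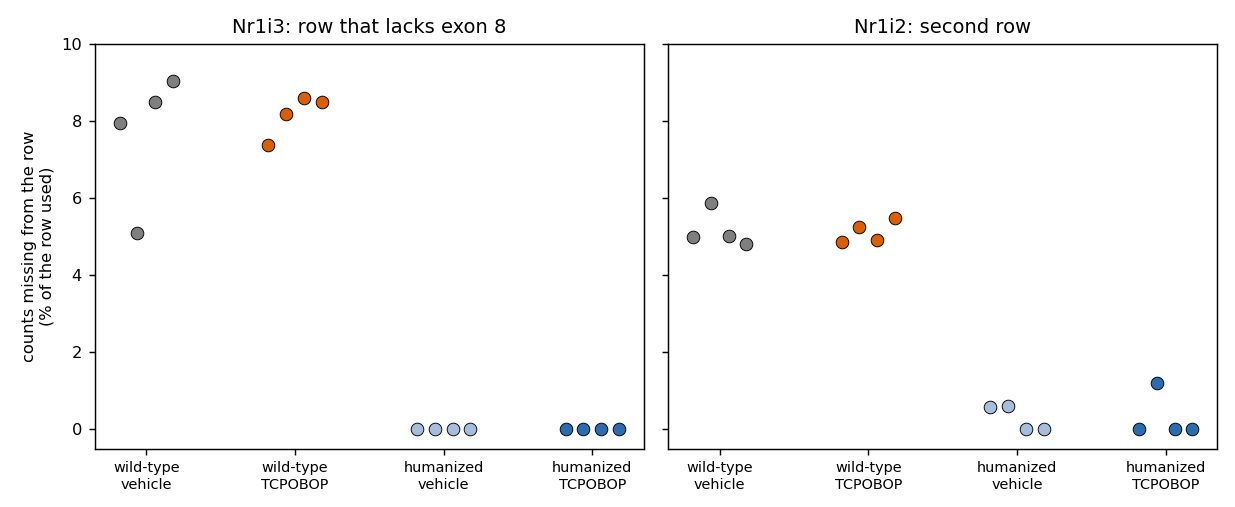
Share of the counts of the row used that a second RefSeq row of the same gene lacks, in percent, for Nr1i3 (the row without exon 8) and Nr1i2; each point is a library. Wild-type livers lie at 5.09 to 9.04% for Nr1i3 and 4.82 to 5.87% for Nr1i2, and humanized livers at 0 and at 0 to 1.20%.

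Tomm40l, a gene for a mitochondrial import protein, lies on the opposite strand at the 3′ end of Nr1i3 and also fell with TCPOBOP in wild-type liver. Its RefSeq range, chr1:171217802-171222514, starts 70 bases after exon 8 and covers the 256 bases of exon 9, 18.8% of the Nr1i3 transcript. A longer GENCODE transcript of Tomm40l covers 6 of the 9 exons, exon 8 included, or 68.6% of the transcript. The sources used here do not say whether the authors' counting used strand, so reads of the shared bases cannot be told apart and both genes' values are uncertain to that extent. Tomm40l was at 88.9, 73.5, 106 and 99.1 CPM in wild-type vehicle and at 55.0, 51.9, 41.4 and 45.9 CPM in wild-type TCPOBOP livers, without overlap. It was 1.89-fold lower (-0.92 ± 0.19, edgeR adjusted p = 0.00323). In humanized vehicle livers it was at 31.9, 34.6, 38.7 and 36.7 CPM, and in humanized TCPOBOP livers at 70.7, 49.7, 37.7 and 37.9 CPM, and these ranges overlapped. The humanized difference of 0.46 ± 0.19 was not past the threshold (adjusted p = 0.218), and the interaction of 1.38 ± 0.27 was (adjusted p = 0.00457).

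Tomm40l was 2.59-fold lower in humanized than in wild-type vehicle liver (-1.37 ± 0.20, edgeR adjusted p = 0.000765). Under TCPOBOP the strains stood at 49.0 ± 15.5 and 48.5 ± 6.06 CPM, a difference of 0.01 with a 95% interval of -0.41 to 0.43. The Nr1i3 count was 95.4 to 127% of the Tomm40l count in wild-type livers and 3.13 to 13.3% in humanized livers. Within the humanized TCPOBOP group the highest Tomm40l library, replicate 1, had the lowest Nr1i3 level.

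**Figure D4:**
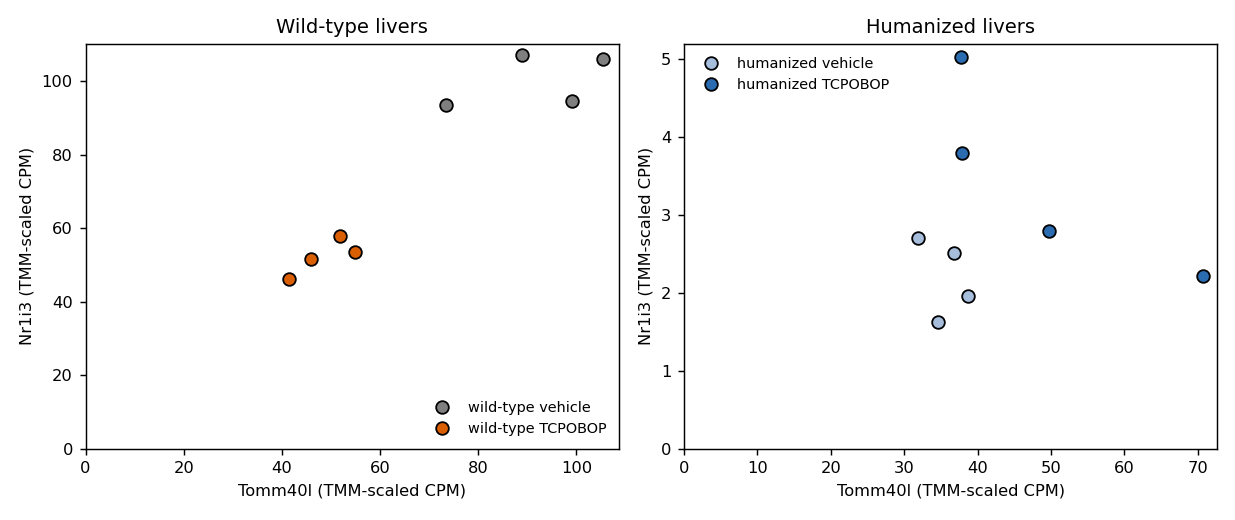
Nr1i3 level against Tomm40l level per library, both in TMM-scaled CPM on linear axes from 0, with wild-type livers on the left and humanized livers on the right, where the Nr1i3 axis is shorter. Both genes are lower in the 4 TCPOBOP livers than in the 4 vehicle livers of the wild-type strain, and in humanized livers Tomm40l stays at 31.9 to 70.7 CPM with Nr1i3 at 5.02 CPM or less.

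Nr1i2 differed between the strains and did not pass the threshold with TCPOBOP in either. The gene lies on the minus strand at chr16:38248349-38294849 (mm10), with NM_010936 as the row used. It was at 129, 195, 109 and 113 CPM in wild-type vehicle livers and at 115, 141, 109 and 107 CPM in wild-type TCPOBOP livers. The ranges overlapped, with replicate 2 the highest of its group under both treatments. The difference was -0.21 ± 0.19, with a 95% interval of -0.62 to 0.20 (edgeR adjusted p = 0.554). Without wild-type vehicle replicate 2 it was 0.011. In humanized livers Nr1i2 was at 17.8, 18.7, 20.7 and 18.6 CPM under vehicle and at 17.3, 23.2, 18.3 and 14.5 CPM under TCPOBOP, which again overlapped. That difference was -0.05 ± 0.20, with an interval of -0.48 to 0.38 (adjusted p = 0.931). The interaction was 0.16 ± 0.27 (adjusted p = 0.807).

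Nr1i2 was 7.20-fold lower in humanized than in wild-type liver under vehicle (-2.85 ± 0.20, edgeR adjusted p = 1.65e-07) and 6.45-fold lower under TCPOBOP (-2.69 ± 0.20, adjusted p = 9.15e-08). The strains did not overlap in any of these libraries. From 117 to 179 counts per library remained in humanized liver, more than for Nr1i3. The second row of the gene, NM_001098404, lacked 786 of 15131 counts of the row used in wild-type libraries (5.19%) and 4 of 1243 in humanized libraries (0.322%, exact 95% interval 0.0877 to 0.822%). Both rows are paired with the same model, so the position of the counts that the second row lacks was not determined.

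Rxra was lower in humanized than in wild-type vehicle liver and did not differ detectably between the strains under TCPOBOP. RXR alpha is the main RXR of hepatocytes. The gene lies on the plus strand at chr2:27676445-27763319 (mm10). It was at 680, 783, 610 and 537 CPM in wild-type vehicle livers and at 350, 488, 449 and 422 CPM in humanized vehicle livers. The groups did not overlap, as was so for 26.4% of all genes tested. The Rxra level was 1.53-fold lower (-0.61 ± 0.18, 95% interval -0.995 to -0.228, edgeR adjusted p = 0.0282). The call was lost without humanized vehicle replicate 1 (adjusted p = 0.0933), 3 (0.0634) or 4 (0.0735) or wild-type vehicle replicate 1 (0.0563), at differences of -0.53 to -0.64. In the same comparison 5 of the 6 Kupffer cell markers were lower (summed level 153 to 233 against 297 to 419 CPM), as was 1 of the 5 endothelial markers (133 to 162 against 248 to 432 CPM), and 1 of 8 hepatocyte markers. Of all genes tested there 8.95% were called lower, near the hepatocyte share. Of the 5 stellate cell markers Reln was lower (-1.12, edgeR adjusted p = 0.0288), and of the 5 cholangiocyte markers Sox9 was higher (1.37, adjusted p = 0.0198). The part of these in the result was not tested.

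With TCPOBOP, Rxra was at 616, 673, 528 and 475 CPM in wild-type livers, within and below the vehicle range (-0.19 ± 0.18, 95% interval -0.57 to 0.19, edgeR adjusted p = 0.575). In humanized TCPOBOP livers it was at 608, 531, 721 and 643 CPM, and all 4 lay above all 4 humanized vehicle libraries. That difference was 0.55 ± 0.18, with an interval of 0.17 to 0.94, and did not pass over all genes (adjusted p = 0.104; exact permutation p = 0.0286). Non-overlap of this kind held for 9.96% of all genes tested in humanized liver, where 2.51% were called (1.32% as higher and 1.19% as lower) and none of the 4 receptor genes was. DESeq2 gave an adjusted p of 0.0132, and the other alternatives that kept all libraries reached up to 0.172. The interaction was 0.74 ± 0.25 (adjusted p = 0.0809, and 0.012 to 0.137 over the alternatives, with 0.012 from DESeq2). Under TCPOBOP the strains differed by 0.13 ± 0.18, with an interval of -0.25 to 0.51 (adjusted p = 0.623).

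Rxrb did not pass the threshold in any comparison. RXR beta is a more widely expressed relative of RXR alpha. Its gene lies on the plus strand at chr17:34031812-34038403 (mm10). It was at 33.5, 41.6, 32.0 and 37.7 CPM in wild-type vehicle and at 31.8, 41.4, 32.5 and 35.0 CPM in wild-type TCPOBOP livers. In humanized livers it was at 39.2, 44.0, 39.8 and 35.9 CPM under vehicle and at 47.2, 45.2, 39.9 and 44.6 CPM under TCPOBOP. Every pair of groups overlapped. The differences with TCPOBOP were -0.04 ± 0.14 in wild-type liver (95% interval -0.35 to 0.27) and 0.16 ± 0.14 in humanized liver (-0.16 to 0.47). The humanized strain stood 0.13 ± 0.14 above the wild type under vehicle and 0.33 ± 0.14 above it under TCPOBOP (edgeR adjusted p = 0.521 and 0.0968). DESeq2 gave 0.0324 for the latter, and its alternatives with all libraries reached up to 0.22.

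The third RXR gene, Rxrg, was low, with vehicle levels of 3.80 ± 1.56 CPM in the wild type and 4.87 ± 0.79 CPM in the humanized strain, and did not pass in any comparison (edgeR, where no unadjusted p was under 0.05, and DESeq2 made no call either). Vdr, which encodes the vitamin D receptor, the closest relative of CAR and PXR, had 0 to 2 counts per library and was not tested.

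The other rows of the RXR genes also lacked other shares of counts in the 2 strains, although Rxra and Rxrb are not named in the strain's label. Rxra rows NM_001290482 and NM_001290481 were short by 0.798% and 0.796% of the counts of the row used in wild-type libraries and by 0.310% and 0.318% in humanized libraries. Single libraries of the strains overlapped, at 0.673 to 0.892% against 0 to 0.753% for the first row and 0.691 to 0.892% against 0 to 0.767% for the second. The paired models of both rows differ from that of the row used at both ends, so these shares are tied to no position. Rxrb row NM_001205215 lacks the first 384 bases of the row used, 198 of them coding, and has 261 bases of its own. It was short by 6.72% in wild-type (1.37 to 8.53%) and by 3.65% in humanized libraries (0 to 10.8%), with humanized TCPOBOP replicate 1 at 0 and replicate 3 at the top. Rxrb row NM_011306 was short by 0.368% in wild-type and 0.429% in humanized libraries. Smaller pooled shares in humanized libraries were thus not limited to Nr1i3 and Nr1i2, and neither RNA coverage nor isoform use was tested.

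The genes on either side of the 4 receptor genes were taken by position, 3 on each side, which gave 24 tested neighbours. Under vehicle 3 of the 24 differed between the strains (12.5%, against 16.1% of all genes) and under TCPOBOP 9 did (37.5%, against 24.6%). With 1 library left out the vehicle count ran from 1 to 9: it was 1 without wild-type vehicle replicate 1 or humanized vehicle replicate 1 or 3, 5 without wild-type vehicle replicate 2, and 9 without humanized TCPOBOP replicate 1. The TCPOBOP count ran from 3 to 11, with 3 when wild-type TCPOBOP replicate 4 was left out and 5 when humanized TCPOBOP replicate 1 was. Pcp4l1, 17.7 kb before Nr1i3, was at 6.09, 3.31, 7.20 and 26.1 CPM as group means of wild-type vehicle, wild-type TCPOBOP, humanized vehicle and humanized TCPOBOP livers. It rose with TCPOBOP in humanized liver by 1.86 (edgeR adjusted p = 0.0077) and differed between strains under TCPOBOP by 2.97 (adjusted p = 9.38e-06). Apoa2, which encodes a major protein of high-density lipoprotein and lies on the other side of Nr1i3, was at 2662 CPM in wild-type and 7985 CPM in humanized TCPOBOP liver (1.58, adjusted p = 0.00438). Gsk3b, 2.27 kb from Nr1i2, and Slc39a7, 0.122 kb from Rxrb, were not called in any comparison, whereas Col11a2, 0.516 kb after Rxrb, was higher in humanized liver under vehicle (1.48, adjusted p = 0.0235) and under TCPOBOP (1.49, adjusted p = 0.012), at means of 0.937 to 3.52 CPM. Its vehicle call was lost on leaving out humanized vehicle replicate 1 (adjusted p = 0.0742) or 3 (0.0732), or replicate 1 (0.0533) or 3 (0.0544) of the wild-type vehicle group. Its TCPOBOP call was lost without humanized TCPOBOP replicate 1 (0.0595).

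Among 12 tested receptors that share RXR as a partner, 1 rose and 2 fell with TCPOBOP in wild-type liver, where 8.09% of all genes tested rose and 4.99% fell. Rarb, a retinoic acid receptor and itself a known retinoic acid target, rose from 4.60 ± 0.97 to 16.3 ± 3.39 CPM (1.83, edgeR adjusted p = 0.000539). Ppara, the fatty acid sensor that drives fat oxidation, fell from 283 ± 83.4 to 123 ± 22.8 CPM (-1.21, adjusted p = 0.0111), and Nr4a1, an immediate early gene, fell from 14.4 to 6.56 CPM (-1.14, adjusted p = 0.0113). In humanized liver Ppard, a further PPAR gene, fell from 27.4 ± 3.29 to 11.9 ± 4.45 CPM (-1.20, adjusted p = 0.0115), while Ppara stood at 144 ± 5.25 and 312 ± 152 CPM (1.11, adjusted p = 0.0581). Pparg was called higher there (0.71, adjusted p = 0.0449), a call lost on leaving out any 1 of 11 libraries. The interaction passed for Ppara (2.32, adjusted p = 0.00262), Rarb (-2.64, 0.00199) and Ppard (-1.71, 0.00325). Nr1h4, which encodes the bile acid receptor FXR, was at 105 ± 31.8, 100.3 ± 8.93, 106 ± 18.2 and 126 ± 23.1 CPM in the 4 groups and was not called. The list's median log2 difference was -0.14 in wild-type and 0.19 in humanized liver, against -0.02 and 0.02 for all genes tested.

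In wild-type liver 13.1% of all genes tested were called and 8.09% rose. Of the 16 genes of the cytoplasmic CAR complex and its kinases and phosphatase, 2 (12.5%) were called there, both as higher. They were the chaperone genes Hsp90aa1 (59.1 ± 35.8 to 150 ± 41.4 CPM, 1.34, edgeR adjusted p = 0.0387) and Hsp90ab1 (996 ± 176 to 1719 ± 202 CPM, 0.79, adjusted p = 0.0334). Among wild-type libraries, both calls were lost on leaving out vehicle replicate 1 (adjusted p = 0.109 and 0.0964) or 3 (0.0904 and 0.0948), or TCPOBOP replicate 3 (0.0893 and 0.0756) or 4 (0.129 and 0.0942). That of Hsp90aa1 was also lost on leaving out vehicle replicate 2 (0.0801), and that of Hsp90ab1 on leaving out TCPOBOP replicate 2 (0.0709). In humanized liver, where 2.51% of all genes were called, edgeR called 0 of 16, though 3 had an unadjusted p under 0.05, and DESeq2 called 0.

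Of 13 coactivators 2 fell in wild-type liver, where 4.99% of all genes did, Ppargc1a (-1.12, edgeR adjusted p = 0.0227) and Ppargc1b (-1.499, adjusted p = 0.0255), which encode PGC-1 alpha and beta, drivers of mitochondrial gene expression. Ppargc1a was at 11.4 ± 1.37 and 5.26 ± 1.52 CPM under vehicle and TCPOBOP, and Ppargc1b at 14.0 ± 7.87 and 4.94 ± 1.55 CPM. Among wild-type libraries, the call of Ppargc1a was lost on leaving out vehicle replicate 1 (adjusted p = 0.0528) or TCPOBOP replicate 3 (0.0659) or 4 (0.0911). That of Ppargc1b was lost on leaving out vehicle replicate 2 (0.0937) or TCPOBOP replicate 2 (0.0507), 3 (0.0858) or 4 (0.0917). In humanized liver, where 2.51% of all genes were called, 0 of 13 were, though 4 had an unadjusted p under 0.05, and DESeq2 called 0. The interaction passed for Ppargc1b (2.59, adjusted p = 0.0138). Of 9 corepressors none was called with TCPOBOP in either strain (unadjusted p under 0.05 for 0 and 1 of them, and DESeq2 calls for 0 and 0). The shares of all genes called were 13.1% in wild-type and 2.51% in humanized liver, at which a list of 9 may hold no call. Nr0b2, which encodes the repressor SHP, was at 41.1 ± 5.93 CPM in wild-type and 96.8 ± 44.9 CPM in humanized TCPOBOP liver (1.23, adjusted p = 0.00558).

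Of 15 transcription factors known to act on the CAR and PXR genes, none was called with TCPOBOP in wild-type liver by edgeR (2 had an unadjusted p under 0.05, and DESeq2 called 0), where Nr1i3 fell and 13.1% of all genes were called. In humanized liver, where 1.32% of all genes rose, 2 of the 15 did, both of the clock-controlled PAR bZIP family. Dbp went from 4.63 ± 1.12 CPM under vehicle to 74.7 ± 37.9 CPM under TCPOBOP (4.01, edgeR adjusted p = 0.00132), with 4 of 4 libraries above all vehicle libraries, while wild-type livers stood at 53.1 ± 32.0 and 46.3 ± 13.8 CPM. Tef went from 69.3 ± 9.61 to 169 ± 61.8 CPM (1.28, adjusted p = 0.0156), a call lost without humanized vehicle replicate 3 (0.065) or 4 (0.0679). The interaction passed for both (4.20, adjusted p = 0.00148, and 1.61, adjusted p = 0.0105). The low group was humanized vehicle, where Dbp was also lower than in wild-type vehicle liver (-3.51, adjusted p = 0.00131). The sources used here do not give the time of day at which livers were taken, and its part in these differences was not tested. Hnf4a, which encodes a nuclear receptor that defines hepatocytes and acts on both receptor genes, was at 1106 ± 142, 946 ± 88.8, 808 ± 128 and 910 ± 342 CPM in the 4 groups and was not called.

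Of 18 tested target genes of CAR and PXR, 15 rose with TCPOBOP in wild-type liver and 5 in humanized liver, and none fell. Of all genes tested 8.09% and 1.32% rose in these comparisons. The list was drawn up with results of these livers known, so its counts are no independent evidence of direction. Cyp2b10, the classical CAR target, was at 48.2 ± 30.9 and 3200.0 ± 305 CPM in wild-type and at 17.4 ± 3.84 and 105 ± 64.4 CPM in humanized liver (6.05, edgeR adjusted p = 2.44e-07, and 2.59, adjusted p = 0.00434). Cyp3a11, a target of both receptors, was at 2984 ± 1960 and 15944 ± 1583 CPM in wild-type liver (2.42, adjusted p = 0.000259) and at 0.56 ± 0.35 and 0.55 ± 0.27 CPM in humanized liver. Cyp3a25 of the same list was at 711 and 763 CPM in wild-type and at 0.209 and 0.0256 CPM in humanized liver. Both genes passed the filter on low counts through the wild-type groups, so a rise in humanized liver could hardly be called. The counts of 15 and 5 are therefore not on equal terms. With 1 library left out, the 5 calls in humanized liver came down to as few as 1. Aldh1a7 lost its call without any 1 of 8 libraries and Cyp2c55 without any 1 of 9, from both strains. Cyp2b10 kept its call throughout.

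**Figure D5:**
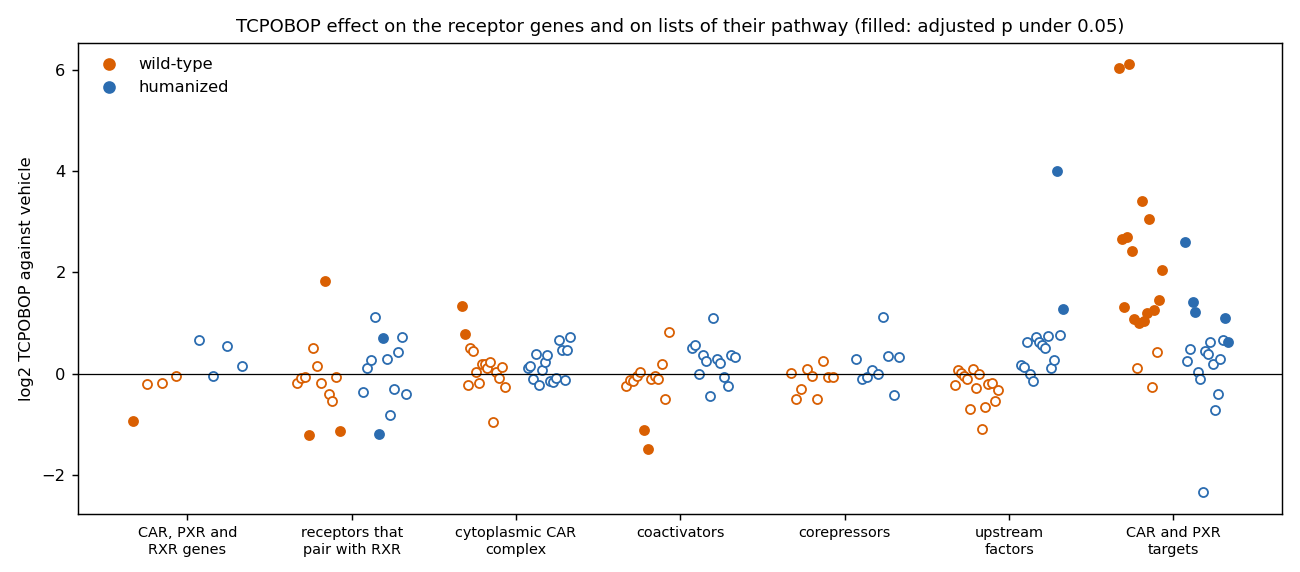
Log2 difference of TCPOBOP against vehicle for each tested gene of the receptor group and of 6 lists around it, in wild-type and humanized liver; filled points have an edgeR adjusted p under 0.05. Of the 4 receptor genes 1 is filled in wild-type liver and none in humanized liver, and the target list holds 15 and 5 filled points.

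Across the 16 libraries, the genes whose log2(CPM + 1) followed the receptor genes most closely, among 9430 genes of at least 5 CPM, were for Nr1i3 and Nr1i2 the same 3 mouse Cyp3a genes. Pearson's r with Nr1i3 was 0.97 for Cyp3a25, 0.94 for Cyp3a11 and 0.93 for Cyp3a59, and r with Nr1i2 was 0.97, 0.96 and 0.93. The points share 2 strains that differ at all of these loci, so the r values describe that split. For Rxra the closest were Pcx (0.94), the gene for pyruvate carboxylase, and Bcas3 (0.93). Pcx had means of 759, 523, 390 and 632 CPM in the 4 groups, lowest in humanized vehicle liver as Rxra was. For Rxrb they were Rnf114 (0.82), Tfeb (0.80) and Ppp2r5d (0.79). After the group means were removed, the closest genes were Lama4 (0.94) for Nr1i3, Mospd3 (0.97) for Nr1i2, Tesk2 (0.92) for Rxra and Shmt2 (0.86) for Rxrb. For Nr1i3 the SD was 22.3 and 35.6% of the mean in the humanized vehicle and TCPOBOP groups, at 14 to 49 counts per library. It was 7.30 and 9.23% in the wild-type vehicle and TCPOBOP groups. The r of Lama4 thus rests largely on humanized counts near the floor, whose origin was not tested. Libraries share depth and composition in these values, which are descriptions over 16 libraries.

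In the RefSeq windows of 250 bases before to 50 bases after each start (GRCm38.p6), the nuclear receptor core AGGTCA on either strand was found in none for Nr1i3, Nr1i2 and Rxrb and at positions 164 and 203 of the second of 2 windows of Rxra. It occurs in 16.3% of all 32851 windows. The direct repeat DR1, made of AGGTCA, any base and AGGTCA, the variant AGTTCA and the D-box TTANGTAA, the element that DBP and TEF bind, were in none of the 4 genes' windows and in 0.0396%, 14.0% and 2.32% of all windows. The E-box CACGTG, found in 7.15% of windows, occurred once, at position 7 of the Nr1i3 window.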

How the data were processed

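Liver RNA of 16 mice was extracted with Trizol, enriched for poly(A) RNA and prepared with a NEBNext kit, per the labels' protocols. STAR, DESeq2 and mm10 are named in the submitters' processing notes without versions. The sources used here do not give the counting program, annotation or strandedness. The authors deposited whole-number counts for 40458 RefSeq transcripts, with totals over all these rows of 11827994 to 37998473 per library. Of counts of 20 or more, 74.9% were even, and 75% is what halved counts rounded to even would give, so 1 count may stand for 2 reads, and counting intervals are approximate. Transcripts were named through RefSeq (40219) and GENCODE M21 (125). The 114 left without a symbol held 0.227 to 0.582% of counts and were kept as they are. Each gene was represented by its transcript with the highest mean count. edgeR 4.0.16 (filterByExpr, TMM, glmQLFit, two-sided F tests, 12 residual degrees of freedom) was fitted to all 16 libraries and was tested on simulated data. SE is the log2 difference over the square root of F. Intervals use 12 degrees of freedom. DESeq2 1.42.0, other scalings, filters, rows, a thinned table, a replicate block and each library left out were alternatives. Replicate numbers were not taken to pair libraries, since 1 of the 4 wild-type correlations and 3 of the 4 humanized ones were not over 0.1. The genes described, the lists and the tests were chosen with earlier results of these data known. Named were the 4 genes, up to 3 neighbours a side, up to 3 called genes of a list per comparison with the smallest p, 6 fixed genes, and the genes most alike, up to 5 per measure; Rxrg and Vdr are the only members of their list. A gene that this rule names is not reported here.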

Additional observations from a re-analysis of the deposited data

Results flagged for a closer look

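The TCPOBOP effect differed between the strains, by edgeR's interaction test, for 16 of the genes looked at, which is what singled them out. The test called 7.46% of all genes tested. The genes looked at were the receptor genes, their neighbours, the genes named from the lists and the gene most like each receptor gene. Some list genes were named for a small p in this same test, so the number of 16 is no evidence about these genes as a set. Among the receptor genes only Nr1i3 passed, at 1.60. Its humanized side rests on 14 to 49 counts per library, whose origin was not tested. The TCPOBOP effect was higher in the humanized than in the wild-type contrast for Dbp (4.20), Ppargc1b (2.59), Ppara (2.32), Pcp4l1 (2.74), Tef (1.61), Cebpa (1.44), Tomm40l (1.38) and Pcx (1.23). It was lower for Cyp2c55 (-4.91), Abcc4 (-3.78), Cyp2b10 (-3.45), Ces2a (-3.03), Rarb (-2.64), Ppard (-1.71) and Aldh1a7 (-1.42). The interaction for Cebpa was lost on leaving out any 1 of 6 libraries. By Dixon's test no library stood apart from the other 3 of its group in the level of a receptor gene. In the Nr1i3 counts missing from the row without exon 8, wild-type vehicle replicate 2 did, at 4.76 CPM, with a gap of 0.882 of the group's range, above the 95% critical value for 4 libraries. Chance gives such a gap in about 1 of 20 groups.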

How the results depend on the processing

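Of 646 values computed under alternatives for the 4 receptor genes and the numbers of genes called, 602 kept their direction and side of the threshold, or stayed within 1.5 times. With DESeq2 the differences of Rxra with TCPOBOP in humanized liver (0.595), its interaction (0.797) and that of Rxrb between strains under TCPOBOP (0.352) passed, and 771 and 1474 genes were called for TCPOBOP in humanized liver and the interaction, against 324 and 963. For TCPOBOP in humanized liver 176 genes were called with a mean of at least 5 CPM, 212 with counts thinned to the smallest library and 182 with only the groups compared. The replicate block called 215 there and changed no call of a receptor gene. It took the same replicate effect in both strains, so pairing within wild-type liver alone was not tested. Rxra lay lower in each wild-type TCPOBOP library than in the wild-type vehicle library of the same number. Same-numbered libraries correlated at 0.067 to 0.507 in wild-type and -0.375 to 0.178 in humanized liver, with 3 of 4 and 0 of 4 best matched to their own number. Upper-quartile scaling moved the share of called genes that rose from 52.5 to 33.8% in humanized liver and from 44.3 to 54.8% between strains under vehicle, and DESeq2 moved it to 64.6% in the former. The DESeq2 median of all genes in the interaction was 0.11.

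With 1 library left out, the number called ran from 1068 to 2200 for TCPOBOP in wild-type liver, 74 to 964 in humanized liver, 575 to 1793 for the interaction, 614 to 3430 between strains under vehicle and 1964 to 4164 under TCPOBOP. The low ends came without wild-type TCPOBOP replicate 4, humanized vehicle replicate 4, wild-type TCPOBOP replicate 4, humanized vehicle replicate 1 and wild-type TCPOBOP replicate 4. Differences with TCPOBOP ran from -0.31 to 0.011 for Nr1i2 and -0.13 to 0.031 for Rxrb in wild-type liver, and in humanized liver from 0.42 to 0.85 for Nr1i3, -0.15 to 0.048 for Nr1i2 and 0.47 to 0.66 for Rxra. Interactions ran from -0.045 to 0.26 for Nr1i2 and 0.66 to 0.84 for Rxra. Strain differences ran from -0.70 to -0.52 for Rxra under vehicle and 0.28 to 0.42 for Rxrb under TCPOBOP. Without wild-type vehicle replicate 2, Rxra in humanized liver (0.57, adjusted p = 0.0484) and Rxrb between strains (0.34, adjusted p = 0.0485) passed, as did the Rxra interaction without humanized TCPOBOP replicate 1 (0.79, adjusted p = 0.048). The causes were not tested.

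Values that changed sign were all uncalled. Cyp3a11 in humanized liver (0.03; -0.34 to 0.33 with libraries left out) was -0.0588 with upper-quartile scaling, -0.00669 with the 5 CPM filter, -0.0201 with the replicate block and -0.439 when thinned. Nr1h4 between strains under vehicle (0.0050; -0.20 to 0.13) was -0.0254 with RLE, -0.0335 with DESeq2, -0.0328 unfiltered, -0.0187 with summed rows, -0.0122 with the lowest row, -0.00662 when thinned and -0.0139 with only the groups compared. Tomm40l between strains under TCPOBOP (-0.21 to 0.12) was -0.0281 with upper-quartile scaling, -0.0212 unfiltered, -0.0145 with the 5 CPM filter and -0.00343 with the block. With libraries left out, Dbp in wild-type liver ran from -0.53 to 0.083, Hnf4a from -0.0096 to 0.43 in humanized liver and -0.24 to 0.18 between strains under TCPOBOP, and Nr1h4 from -0.27 to 0.054 in wild-type liver.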
